A study of Rattus norvegicus with 26 samples.

Results

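The miRNAs rno-miR-23a, rno-miR-27a, rno-miR-23b, rno-miR-27b and rno-miR-24, called miR-23a and so on below, are made from paralogous loci, an a cluster with the hairpins of miR-23a, miR-27a and miR-24-2 and a b cluster with those of miR-23b, miR-27b and miR-24-1. They were taken by their names on the array, star strands left out, and are 5 of the 677 miRNAs that the array measures. The study asked which miRNAs differ between rat livers that lost different shares of their mass by partial hepatectomy (PH). Male Sprague-Dawley rats lost either the left lateral lobe (1/3 PH, about 30% of the liver) or the larger share of the standard operation (2/3 PH), for which no percentage is given, and their right lobes were taken 6, 12, 24 or 36 hours later. The controls were right lobes of rats without PH, whose protocol label nevertheless reads sham, so that anaesthesia and laparotomy may or may not be shared with the operated rats. RNA of each rat went to its own one-colour miRNA array, and the 9 groups held 3 arrays apart from 1/3 PH at 6 hours, which held 2. Times follow the sample titles. On some arrays the source label gives 13, 14, 25, 26, 37 or 38 hours where the title gives 12, 24 or 36. The age of the rats is not given in the sources used here.

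A mature miRNA steers the silencing complex to transcripts that pair with its seed, the bases near its 5′ end, so miRNAs that share a seed share many predicted targets. The hairpins of 1 cluster are cut from a single primary transcript, after which each mature miRNA is processed, loaded and degraded on its own. In the liver, miR-27a and miR-27b are known for repressing genes of lipid metabolism, the miR-23b cluster for acting on Smad proteins of the TGF-β pathway, and miR-24 for targeting regulators of the cell cycle.

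All mature sequences were found in RefSeq (assembly GRCr8). They are printed because they show how little separates the a from the b members, and the capitals mark the seed, bases 2 to 8 from the 5′ end.
rno-miR-23a: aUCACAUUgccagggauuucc
rno-miR-23b: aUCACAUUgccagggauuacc
rno-miR-27a: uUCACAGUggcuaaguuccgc
rno-miR-27b: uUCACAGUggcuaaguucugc
rno-miR-24: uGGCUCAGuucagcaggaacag

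Within the miR-23 and the miR-27 pair the seed was identical and a single base near the 3′ end differed, U19A from miR-23a to miR-23b and C19U from miR-27a to miR-27b, counted from 1 at the 5′ end. No other mature rat miRNA of the 693 names in the table had either seed. Mature miR-24 was the same from both of its hairpins, so its signal belongs to no single cluster. In GRCr8 the a cluster spans 389 bases of chromosome 19, chr19:40859455-40859843 on the minus strand, with no other RefSeq gene over it. The b cluster spans 814 bases, chr17:1818669-1819482 on the minus strand, and overlaps the RefSeq genes Aopep, Fancc and Mir3074. How far a probe for one paralog also binds the other was not tested, and the values of the pairs below carry that uncertainty.

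All 5 miRNAs were detected on all 26 arrays by the scanner software's own call, as were 82 of the 677. Each was read by 2 probes with 10 spots per probe, none saturated. By mean signal over the arrays they ranked 14th (miR-23b), 25th (miR-24), 27th (miR-27b), 33rd (miR-23a) and 36th (miR-27a) among the 677, as brightness of different probes, which does not rank the amounts of the molecules. The array of 1/3 PH 12 h replicate 2 stood apart, with 91 miRNAs detected and a total signal of 12434.5 units against 118 to 155 miRNAs and 39148.8 to 68366.3 units on the others. There were 6 slides and 3 scan days. Signals were divided by the 75th percentile of the 109 probes that were well above background on all arrays and put on a log2 scale, which is the level given below. Groups were compared with limma, all 9 together in 1 fit. It covered the 144 miRNAs that some group showed on all of its arrays, and a call is a Benjamini-Hochberg adjusted p under 0.05. In whole liver, fewer cells of a type and less RNA per cell cannot be told apart.

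Among the miRNAs of the a and b clusters, the one that varied most over the groups was miR-27a, the a member of the lipid-related pair. By SD over the 26 arrays miR-27a ranked 43rd among the 82 miRNAs detected on all of them. Its level in normal liver was -0.30, -0.52 and -0.56 on the 3 arrays. At 6 hours it was -0.63 and -0.44 after 1/3 PH and -0.60, -0.98 and -0.71 after 2/3 PH. At 12 hours it was -0.49, -0.14 and -0.77 after 1/3 PH and -0.81, -0.70 and -0.62 after 2/3 PH. All early arrays of 2/3 PH thus lay below all normal livers, whereas those of 1/3 PH lay on both sides of them. At 24 hours the level was -0.28, -0.16 and -0.17 after 1/3 PH and -0.13, -0.05 and -0.23 after 2/3 PH. At 36 hours it was 0.01, -0.22 and -0.31 after 1/3 PH and -0.29, -0.30 and -0.25 after 2/3 PH. After 2/3 PH all 6 arrays of 24 and 36 hours (-0.30 to -0.05) lay above all 6 of 6 and 12 hours (-0.98 to -0.60), and above all normal livers, narrowly so at 36 hours. The share of all miRNAs that part early from late arrays in this way is not given here. Between 6 and 36 hours alone, after 2/3 PH, 42.4% of the 144 tested had no overlap. From the highest to the lowest mean of miR-27a the groups were 2/3 PH 24 h, 1/3 PH 36 h, 1/3 PH 24 h, 2/3 PH 36 h, normal liver, 1/3 PH 12 h, 1/3 PH 6 h, 2/3 PH 12 h and 2/3 PH 6 h. Of the 8 pairs of neighbours in that order 3 differed by more than the larger SD of the pair, and only 2/3 PH 36 h and normal liver had no overlap.

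Its seed partner miR-27b spanned a narrower range. The level of miR-27b was 0.34, 0.03 and -0.01 in normal liver, and its group means lay between -0.02 ± 0.16 (SD, n = 3) 36 hours after 2/3 PH and 0.26 ± 0.08 (SD, n = 3) at 24 hours after 1/3 PH. Its SD over the 26 arrays was 0.14 on the log2 scale, against 0.26 for miR-27a. Single arrays ran from -0.20, at 36 hours after 2/3 PH, to 0.37, at 12 hours after 1/3 PH. None of its 8 pairs of neighbouring groups differed by more than the larger SD.

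The miR-23 pair had its lowest mean at 36 hours after 2/3 PH, in both members. In normal liver miR-23a was at 0.18, 0.34 and -0.10 and miR-23b at 1.20, 1.23 and 1.00. After 2/3 PH miR-23a was at 0.23, 0.02 and 0.34 6 hours after the operation, then -0.15, 0.03 and 0.17 by 12 hours, -0.09, -0.12 and -0.25 by 24 hours and -0.35, -0.29 and -0.05 by 36 hours. On the same arrays miR-23b was at 1.26, 1.21 and 1.52 at 6 hours, 1.36, 1.30 and 1.50 at 12 hours, 1.14, 1.14 and 1.05 at 24 hours and 0.77, 0.90 and 1.22 at 36 hours. For miR-23b 5 of the 6 late arrays lay below every early one, for miR-23a 3 of 6. After 1/3 PH miR-23a was at -0.08 and 0.22 at 6 hours, 0.31, 0.39 and -0.16 at 12 hours, -0.26, -0.01 and 0.44 at 24 hours and 0.05, -0.16 and -0.11 at 36 hours. There miR-23b was at 1.01 and 1.16 at 6 hours, 1.44, 1.67 and 1.31 at 12 hours, 1.15, 1.19 and 1.44 at 24 hours and 1.09, 1.19 and 1.02 at 36 hours. Late and early arrays of 1/3 PH overlapped for both. The order of group means began with 2/3 PH 6 h for miR-23a and 1/3 PH 12 h for miR-23b. No neighbouring groups in either order differed by more than the larger SD.

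Of the 5 miRNAs miR-24 varied least, with an SD over the arrays of 0.13 on the log2 scale. Its level was 0.47, 0.25 and 0.17 in normal liver. Its group means ran from 0.10 ± 0.10 (SD, n = 3) at 36 hours after 2/3 PH, where the arrays were at -0.01, 0.14 and 0.16, to 0.34 ± 0.11 (SD, n = 3) at 24 hours after 1/3 PH. Those 3 arrays of 2/3 PH lay below all normal livers, and no neighbouring groups differed by more than the larger SD.

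**Figure D1:**
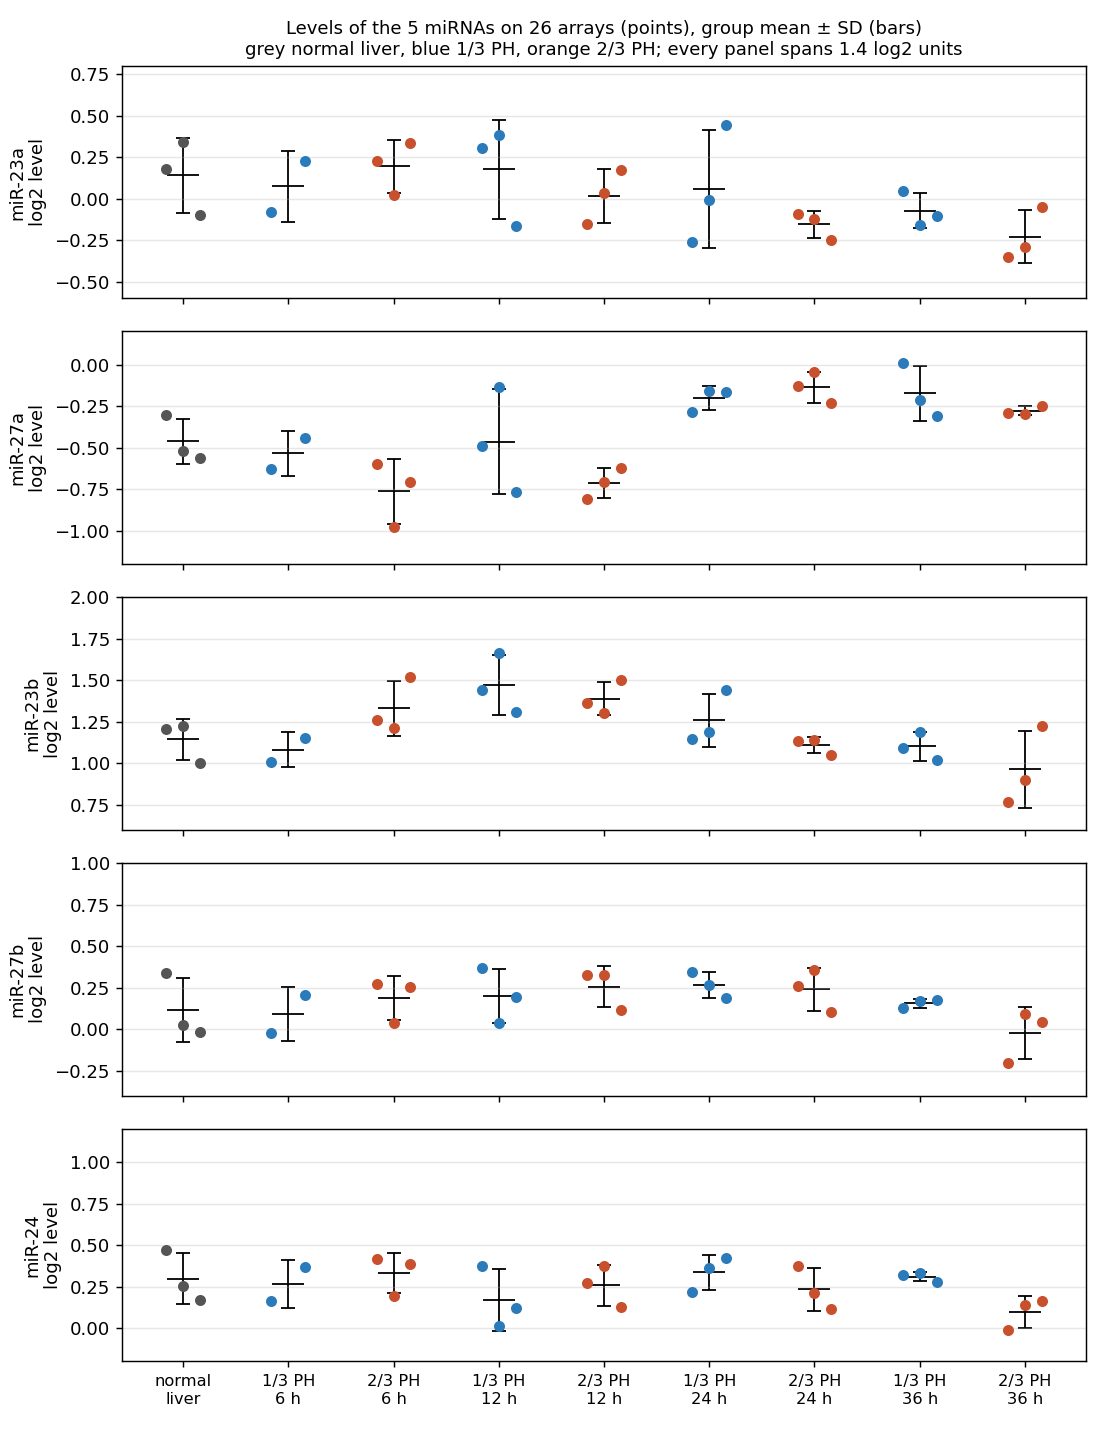
Level of each miRNA on a log2 scale (vertical axis, signal relative to the 75th percentile of the reference probes) on the 26 arrays, by group (horizontal axis), each point an array, with the group mean and SD as bars. After 2/3 PH the points of miR-27a step up between 12 and 24 hours, from at most -0.60 to at least -0.30, while the miR-24 group means stay within 0.24 of each other. The share of all miRNAs with such a step is not given here.

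Tested over all 9 groups with limma's moderated F test, miR-27a was the only one of the 5 that was called (F = 5.51, adjusted p = 0.0065). Over all miRNAs tested the same test called 29.9% of 144. That call of miR-27a was kept with any 1 array left out. It was lost with no scaling, with normexp background correction, in the deposited log2 table, with outlier spots kept and with the software's total signal. Under the total signal miR-23b was called in its place. Normexp here included an offset of 50 units added before the log2 scale, which narrows log2 differences of weak signals. The paralog nearest to a call was miR-23b (F = 3.22, adjusted p = 0.0551), and the adjusted p of miR-23a, miR-24 and miR-27b lay between 0.445 and 0.693. The range of group means was 0.62 for miR-27a, 0.51 for miR-23b, 0.42 for miR-23a, 0.29 for miR-27b and 0.24 for miR-24 on the log2 scale.

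Against normal liver, 0 of the 5 were called by limma at any time after either operation. After 1/3 PH the unadjusted p was under 0.05 in 2 of 20 tests, for miR-23b at 12 hours (log2 difference 0.33, adjusted p = 0.114, 1.26-fold) and miR-27a at 36 hours (log2 difference 0.29, adjusted p = 0.715). Over all miRNAs the calls after 1/3 PH were 0% at 6 hours, 4.17% at 12 hours (1.39% higher and 2.78% lower), 0.694% at 24 hours and 0% at 36 hours. After 2/3 PH it was under 0.05 in 3 of 20 tests. These were miR-27a at 6 hours, lower by 0.30 (0.813-fold, adjusted p = 0.405), miR-27a at 24 hours, higher by 0.33 (1.25-fold, adjusted p = 0.125), and miR-23a at 36 hours, lower by 0.37 (0.774-fold, adjusted p = 0.142). Over all miRNAs the calls after 2/3 PH were 0% at 6 hours, 6.94% at 12 hours (0.694% higher and 6.25% lower), 18.1% at 24 hours (9.72% higher and 8.33% lower) and 18.8% at 36 hours (11.1% higher and 7.64% lower). The groups did not overlap with normal liver after 1/3 PH for 0, 1, 1 and 0 of the 5, in order of time, beside 20.8%, 28.5%, 13.2% and 18.8% of all miRNAs, and for 1, 2, 1 and 2 of the 5 after 2/3 PH, beside 19.4%, 23.6%, 34% and 43.8%. For miR-27a the early and the late estimates after 2/3 PH thus had opposite signs, with 95% intervals of -0.59 to -0.01 at 6 hours and 0.04 to 0.62 at 24 hours. Without 1/3 PH 12 h replicate 2, which is in neither group but enters the shared estimate of spread, miR-27a at 24 hours after 2/3 PH was called.

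Between the operations at the same time, limma called 0 of the 5, with an unadjusted p under 0.05 in 0 of 20 tests. The calls over all miRNAs were 0% at 6 and at 12 hours, 2.78% at 24 hours and 15.3% at 36 hours (10.4% higher and 4.86% lower). The operations did not overlap for 1, 0, 1 and 2 of the 5 at these times, beside 18.1%, 6.94%, 15.3% and 36.1% of all miRNAs. The largest differences of 2/3 PH minus 1/3 PH were 0.25 for miR-23b at 6 hours (95% interval -0.05 to 0.55) and -0.25 for miR-27a at 12 hours (95% interval -0.54 to 0.04). At 36 hours all 5 estimates were below 0, from -0.21 for miR-24 to -0.11 for miR-27a, beside a median of -0.12 over all 144. The change of the operations' difference from 6 to 24 hours and from 6 to 36 hours was also called for 0 of the 5 (0 at an unadjusted p under 0.05), where 0.694% and 4.17% of all miRNAs were called.

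From 6 to 36 hours after 2/3 PH miR-27a rose and miR-23b fell. For miR-27a the mean went from -0.76 to -0.28, a log2 difference of 0.48 (SE 0.14, 95% interval 0.19 to 0.77, 1.40-fold, adjusted p = 0.0126 by limma), with no overlap between the 3 arrays of each time. For miR-23b it went from 1.33 to 0.97, a log2 difference of -0.37 (SE 0.13, 95% interval -0.64 to -0.10, 0.776-fold, adjusted p = 0.0366), although 1 array of 36 hours lay among those of 6 hours. These were 2 calls of 5, beside 28.5% of all 144 miRNAs (15.3% higher and 13.2% lower). The other 3 were not called, with log2 differences of -0.42 for miR-23a (adjusted p = 0.0739), -0.24 for miR-24 (adjusted p = 0.128) and -0.21 for miR-27b (adjusted p = 0.198). The median over the 5 was -0.24, and over all miRNAs tested -0.04. The groups of 6 and 36 hours did not overlap for miR-27a, miR-23a and miR-24, as for 42.4% of all miRNAs. The 2 probes of miR-27a differed by 0.44 and 0.49 and those of miR-23b by -0.34 and -0.38 on the log2 scale, each pair the same way.

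After 1/3 PH 0 of the 5 were called between 6 and 36 hours, as were 0% of all miRNAs, with an unadjusted p under 0.05 for 1, miR-27a. Its mean went from -0.53 to -0.17, a log2 difference of 0.36 (95% interval 0.04 to 0.69, adjusted p = 0.42), and it was the 1 of the 5 whose groups did not overlap, beside 32.6% of all miRNAs. The other 4 estimates lay between -0.15 for miR-23a and 0.06 for miR-27b. The intervals of miR-27a after the 2 operations overlapped widely, and the difference between them, 0.12 (95% interval -0.32 to 0.55), was not called.

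**Figure D2:**
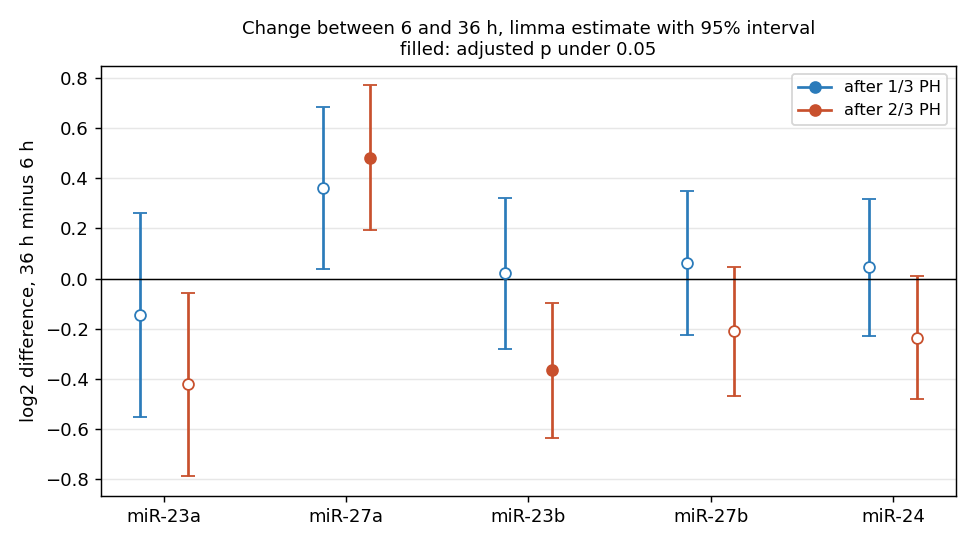
Log2 difference between 36 and 6 hours (vertical axis) for each miRNA (horizontal axis) after 1/3 PH and 2/3 PH, points the limma estimates, bars their 95% intervals and filled points those with an adjusted p under 0.05. The filled points are miR-27a at 0.48 and miR-23b at -0.37, both after 2/3 PH.

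Both calls depended on single arrays and on the processing. The call of miR-27a was lost without 2/3 PH 6 h replicate 2 (log2 difference 0.37, adjusted p = 0.0634), and that of miR-23b without any of 4 arrays, 2/3 PH 6 h replicates 1 and 3 and 2/3 PH 36 h replicates 1 and 2 (adjusted p up to 0.2). Over 12 other ways of processing or modelling the arrays both kept their sign, miR-27a with a call in 5 and estimates of 0.23 (normexp) to 0.61, miR-23b with a call in 3 and estimates of -0.52 to -0.20 (normexp). No slide held 2/3 PH arrays of both times, and with slide as a random block miR-27a kept its call (0.52, adjusted p = 0.0119) while miR-23b did not (-0.32, adjusted p = 0.0613). With slide as a fixed block neither was called (0.61, adjusted p = 0.212, and -0.31, adjusted p = 0.353), and with scan day as a fixed block miR-27a was (0.49, adjusted p = 0.0484) and miR-23b was not (-0.28, adjusted p = 0.0637). Scan day 3 held 1 array of each time, and there the differences were 0.46 for miR-27a and -0.30 for miR-23b.

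Markers of other cells moved between the same groups. Of the leukocyte miRNAs 4 of 6 were tested. From 6 to 36 hours after 2/3 PH 2 of these were called lower, miR-150 and miR-146a, beside 13.2% of all 144 miRNAs. The other tested ones were not called, with log2 differences of 0.14 for miR-142-3p and -0.06 for miR-223, and miR-142-5p was detected on no array. The summed level of the leukocyte list was -0.07 to 0.11 at 6 hours and -0.27 to -0.19 at 36 hours. Of the biliary epithelium list 3 of 5 were tested and 2 were called higher, miR-200b and miR-429, beside 15.3% of all 144 miRNAs. The third, miR-200a, was not called (log2 difference 0.60). The summed level of the biliary list was -2.13 to -1.48 at 6 hours and -1.23 to -0.62 at 36 hours, while miR-200c and miR-141 were detected on no array. Of the hepatocyte, endothelial, stellate and red cell lists 0 miRNAs were called among 3 of 4, 1 of 2, 4 of 5 and 1 of 3 tested. The summed level of the hepatocyte list, with miR-122, was 7.44 to 7.60 at 6 hours and 7.35 to 7.54 at 36 hours. That of the stellate list was 0.37 to 0.56 and 0.30 to 0.42, with miR-145 on no array. The endothelial list stood at 1.22 to 1.45 and 1.10 to 1.27, and the red cell list at -2.25 to -1.85 and -1.81 to -1.34. The part of these cells in the changes of miR-27a and miR-23b was not tested.

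Because a scaling factor common to an array cancels in a ratio, the a and b clusters were compared by the log2 ratio of the a to the b member on each array. Only shifts of the ratio between groups are read, since its sign depends on the probes. The miR-27 ratio, miR-27a minus miR-27b, was -0.64, -0.55 and -0.54 in normal liver. After 2/3 PH it was -0.87, -1.01 and -0.96 at 6 hours, -1.14, -1.03 and -0.74 at 12 hours, -0.39, -0.40 and -0.33 at 24 hours and -0.09, -0.39 and -0.29 at 36 hours. Every early array thus lay below, and every late array above, the normal livers. Late hours (24 and 36) exceeded early hours (6 and 12) by 0.64 on the log2 scale (1.56-fold, 6 against 6 arrays, exact permutation p = 0.00216, the smallest this design allows, adjusted p = 0.0173 over 8 ratio tests, two-sided).

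After 1/3 PH the miR-27 ratio was -0.61 and -0.65 at 6 hours, -0.86, -0.18 and -0.96 at 12 hours, -0.62, -0.42 and -0.35 at 24 hours and -0.11, -0.38 and -0.49 at 36 hours. Late and early arrays overlapped. The early array 1/3 PH 12 h replicate 2, the one of low total signal, was at -0.18 higher than all but 1 of the late arrays, and the late array at -0.62 lay below an early one at -0.61. The shift was 0.25 (6 against 5 arrays, exact permutation p = 0.11, adjusted p = 0.294), and 0.37 without that array. It was 0.36 within scan day 1 (5 late and 4 early arrays) and -0.17 within scan day 3 (1 of each, the early one being that array). The late minus early shift was larger by 0.39 after 2/3 PH than after 1/3 PH, averaged over times. Exact permutation of the operations within time gave p = 0.0181 (adjusted p = 0.0362 over 2 tests, a test added after the data were seen). Since this permutation assumes no difference between the operations at any time, the call does not concern the change of their difference alone. That call was lost without any 1 of 10 arrays, with 0.27 without 1/3 PH 12 h replicate 2 (exact permutation, adjusted p = 0.0847). It was also lost with values centred on slide (0.21, exact permutation, adjusted p = 0.492), normexp (0.20, adjusted p = 0.306), the deposited log2 table (0.35, adjusted p = 0.148) and quantile normalization (0.43, adjusted p = 0.0577). At 24 and 36 hours the operations shared no slide, so the centred value does not compare them on common slides there.

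The miR-23 ratio, miR-23a minus miR-23b, showed no such step. It was -1.10 to -0.88 in normal liver, and after 2/3 PH -1.51 to -1.04 on the early and -1.30 to -1.12 on the late arrays. Late minus early was 0.03 after 2/3 PH (exact permutation p = 0.745, adjusted p = 0.993, n = 6 and 6) and -0.01 after 1/3 PH (exact permutation p = 0.959, adjusted p = 0.993, n = 6 and 5). Over all 23 remnant livers the miR-23 ratio was 0.21 below that of the 3 normal livers on the log2 scale, with a mean of -1.21 ± 0.15 (SD) in the remnants (exact permutation p = 0.0246, adjusted p = 0.0985). It was -0.12 with values centred on slide, -0.11 in the deposited log2 table and -0.06 with normexp, not called in any of the 3. Within scan days 1, 2 and 3, with 1 normal liver each, that difference was -0.20, -0.05 and -0.33. For miR-27 the same comparison gave 0.00 (exact permutation p = 0.993, adjusted p = 0.993), the early and late arrays lying on opposite sides of normal liver. Between the operations, averaged over times, neither ratio differed past the threshold (exact permutation within time, -0.07 for miR-23 and -0.12 for miR-27, adjusted p = 0.345 for both). Within scan day 1 the differences were -0.05 for miR-23 and -0.11 for miR-27. Scan day 3 held both operations only at 12 hours, with 1 array of each, and there they were -0.04 and -0.56. The 1/3 PH array of that pair was 1/3 PH 12 h replicate 2, the one of low total signal. With values centred on slide the miR-27 difference between the operations was -0.23 and called (exact permutation within time, adjusted p = 0.0206). At 24 and 36 hours the operations shared no slide, so that centring there set each operation against other groups of its slide. The array 2/3 PH 36 h replicate 3 was alone on its slide, which fixes its centred value. That result therefore does not compare the operations on common slides.

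**Figure D3:**
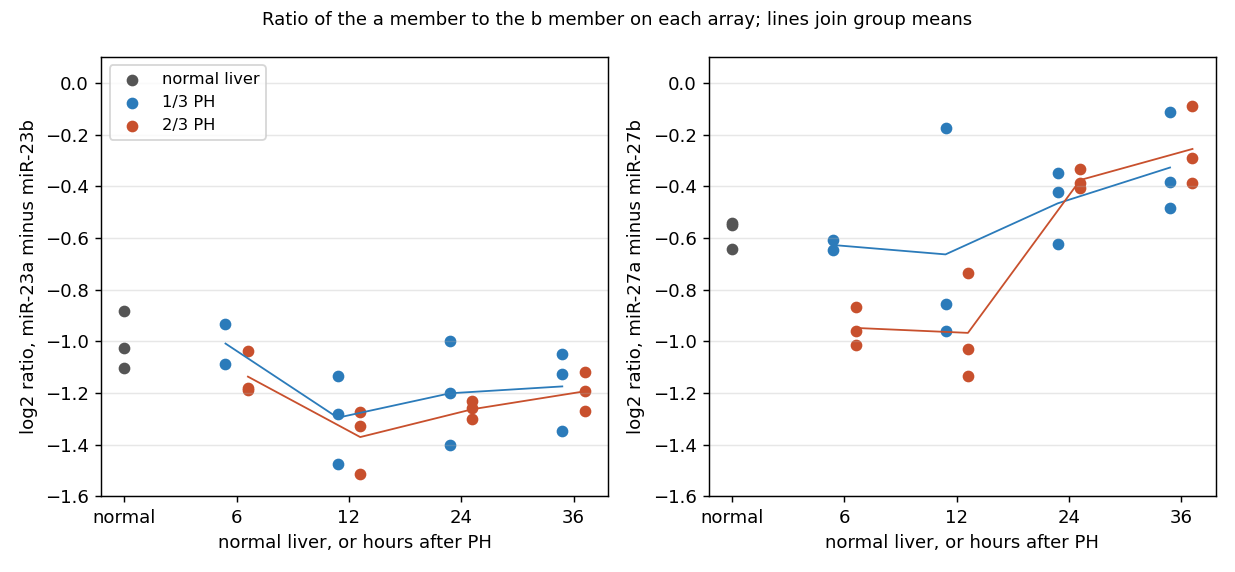
Log2 ratio of the a to the b member (vertical axis) on each array, in normal liver and by hours after PH (horizontal axis), left for miR-23 and right for miR-27, with lines through the group means of each operation. The miR-27 ratio after 2/3 PH steps from -1.14 to -0.74 on the early arrays up to -0.40 to -0.09 on the late ones, while the miR-23 ratios of early and late arrays overlap.

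The early and the late arrays of 2/3 PH shared no slide, 3 slides holding the former and 3 others the latter, so that slide and time cannot be told apart in this comparison. The normal livers lay on 3 different slides, of which 2 also held early and 1 also held late 2/3 PH arrays, and their miR-27 ratios lay between -0.64 and -0.54. Centring values on their slide, which here sets 2/3 PH arrays against the other groups of their slide and not late against early, gave 0.26. Within scan day 1 the shift after 2/3 PH was 0.64 (3 late and 4 early arrays), and within scan day 3 it was 0.56 (1 late and 2 early). With any 1 array left out the shift stayed between 0.60 and 0.69. Late and early arrays did not overlap, so the permutation p stayed at its smallest possible value. The call could therefore not be lost in this way. With normexp background correction and its offset of 50 units the shift was 0.30 and not called (exact permutation, adjusted p = 0.104). The correction and the offset were not tried apart.

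The step also separated miR-27a from miR-23a, its neighbour on the same primary transcript. As a description, miR-27a minus miR-23a lay at -1.04 to -0.66 on the 6 early and at -0.20 to 0.07 on the 6 late arrays of 2/3 PH, with means of -0.84 and -0.02. After 1/3 PH the means were -0.63 (n = 5) and -0.18 (n = 6). In the b cluster miR-27b minus miR-23b went from -1.14 to -0.93 after 2/3 PH and from -1.16 to -0.97 after 1/3 PH, with overlap both times.

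Set beside the other pairs whose names differ only by the letter a or b and that were detected on all arrays, 6 pairs in all, the late minus early shift of miR-27 after 2/3 PH ranked second in size. The pair with the larger shift was miR-29a and miR-29b at -0.92, and the remaining 4 lay between -0.25 (miR-26) and 0.13 (miR-125-5p). After 1/3 PH miR-29 (-0.37) and miR-27 (0.25) again ranked first and second.

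Across the 26 arrays 2 of the 10 pairs of these miRNAs passed the threshold by Pearson's r, the miR-23 paralogs and miR-27b with miR-24. The paralogs miR-23a and miR-23b correlated with r = 0.74 (permutation p = 1e-05, the smallest that 100000 resamples can give, adjusted p = 0.0001) and Spearman rho = 0.66 (permutation p = 0.00029, adjusted p = 0.0029). Without the 2 arrays farthest from the median of miR-23a r was 0.67, and within scan days 1 and 3 it was 0.40 (n = 17) and 0.51 (n = 6). Between miR-27b and miR-24 r was 0.70 (permutation p = 0.00014, adjusted p = 0.0007) and rho 0.64 (permutation p = 0.00067, adjusted p = 0.00335), with r = 0.60 without the 2 farthest arrays and 0.51 (n = 17) and 0.75 (n = 6) within the scan days. The pair of miR-23a and miR-24 passed by rho (0.52, permutation p = 0.0071, adjusted p = 0.0237) but not by r (0.45, permutation p = 0.0219, adjusted p = 0.073), with r = 0.62 without the 2 farthest arrays and 0.70 and 0.36 within scan days 1 and 3.

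Within the a cluster r was -0.10 for miR-23a and miR-27a (permutation p = 0.64, adjusted p = 0.8, rho -0.07), and within the b cluster it was 0.40 for miR-23b and miR-27b (permutation p = 0.045, adjusted p = 0.112, rho 0.32). Without 1/3 PH 12 h replicate 2, the array of low total signal, these r were -0.18 and 0.55. Within scan day 1 they were -0.14 and 0.58 (n = 17), and within scan day 3 0.07 and 0.35 (n = 6). Between miR-27a and miR-27b r over the 26 arrays was 0.02 (permutation p = 0.939, adjusted p = 0.939, rho 0.06). As a description, after the 9 group means were removed miR-27a correlated with miR-23a (r = 0.66) and with miR-23b (r = 0.56), while miR-27a and miR-27b stayed at 0.16. All values of an array share its scaling factor, and the median r over the 10 pairs, 0.21 here, was 0.88 without scaling.

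**Figure D4:**
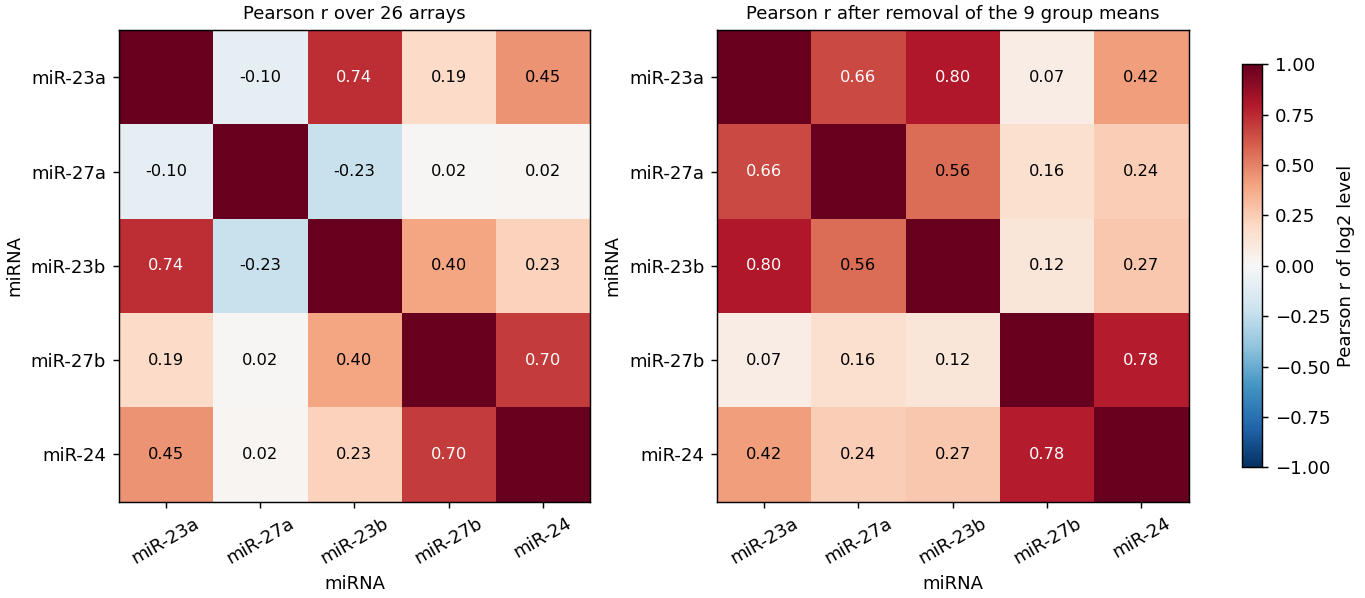
Pearson r of log2 level for each pair of miRNAs (both axes), left over 26 arrays and right after the 9 group means were removed, the colour giving r from -1 to 1. The r of miR-23a with miR-27a goes from -0.10 on the left to 0.66 on the right, and those of miR-23a with miR-23b and of miR-27b with miR-24 are at least 0.70 in both.

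Among the other 81 miRNAs detected on every array, the 3 with the highest Pearson r over the 26 arrays were taken as most alike. For miR-27a these were miR-101b (0.67), miR-29b (0.63) and miR-193 (0.62). For miR-23a they were miR-23b (0.74), miR-30a* (0.70) and miR-30e* (0.67), and for miR-23b miR-30a* (0.82), miR-125b-5p (0.76) and miR-23a (0.74). For miR-27b they were miR-24 (0.70), miR-143 (0.59) and miR-99a (0.54), and for miR-24 miR-27b (0.70), miR-143 (0.69) and miR-126 (0.69). No miRNA was on the lists of both miR-27a and miR-27b, whereas miR-30a* was on those of both miR-23 paralogs. The median r with the other miRNAs was between -0.09 and 0.06 for the 5.

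Of the star strands, the opposite arms of the same hairpins, miR-27a*, miR-24-2*, miR-23b*, miR-27b* and miR-24-1* were detected on none of the 26 arrays. The strand miR-23a* was detected on 5 arrays, all among the 23 of remnant livers and none among the 3 of normal liver. With so few normal livers, absence there says little. Its signals when detected were 2.1 to 5.1 units, where miR-23a itself had 52.0 to 218.8 units over the 26 arrays.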

How the data were processed

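Total RNA of 26 right lobes was labelled with Cy3 and hybridized to Agilent rat miRNA arrays. The authors deposited spot intensity values from Agilent Feature Extraction 10.7.3.1, background-subtracted and not normalized between arrays, with the software's outlier and detection flags. They also deposited a log2 table normalized between arrays by a method not given in the sources used here, which served only as an alternative.

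From the processed intensity, spots marked as outliers were dropped, spots averaged per probe and probes summed per miRNA. Each array's divisor was the 75th percentile of 109 reference probes, those above background everywhere. Values were floored at the array's lowest probe well above background and put on a log2 scale. The limma fit (limma 3.58.1 in R 4.3.3, lmFit and eBayes, 17 residual and 2.32 prior degrees of freedom) had 16 contrasts and an F test, with Benjamini-Hochberg adjustment over 144 miRNAs. Ratios were tested by exact permutation and correlations with 100000 resamples (scipy 1.17.1, Python 3.11.15, with pandas 2.3.3, numpy 2.4.6; figures by matplotlib 3.10.9). The procedure was tested on simulated data.

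The text names the 5 members, their star strands, the 3 miRNAs most correlated with each, the a and b pairs, and cell type markers. Members and lists were chosen with earlier results of these data known. Alternatives covered scaling, background, floor, filter, probe summary, batch blocks, the log2 table and each array left out. Nothing in the labels relates the rats to each other, p-values measure the spread between these arrays, and the number of arrays limits the precision.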

Additional observations from a re-analysis of the deposited data

Results flagged for a closer look

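The late minus early shift of the miR-27 ratio (miR-27a minus miR-27b) was larger after 2/3 PH than after 1/3 PH by 0.39 on the log2 scale. A test added after the data were seen passed its threshold (exact permutation of the operations within time, adjusted p = 0.0362 over 2 tests). That permutation assumes no difference between the operations at any time, so it does not test the change of their difference alone. Leaving out single arrays gave 0.27 to 0.47, all above 0, and 16 of the 26 such fits stayed past the threshold. Fits without a normal liver are among these 16 and only repeat the main result, because the test does not use those arrays. The call was lost with values centred on slide (0.21, adjusted p = 0.492), normexp (0.20, adjusted p = 0.306), the deposited log2 table (0.35, adjusted p = 0.148) and quantile normalization (0.43, adjusted p = 0.0577), all by exact permutation. At the late hours the operations shared no slide, so the centred value does not compare them on common slides there.

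The star strand miR-23a* was detected on 5 arrays and on none of the 3 normal livers, at signals of 2.1 to 5.1 units. As 23 of the 26 arrays were of remnant livers, absence from the normal ones says little. Of these arrays 1 was of 1/3 PH and 4 of 2/3 PH, which was not tested.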

How the results depend on the processing

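No paired analysis was possible because the labels number the replicates of normal liver alone.

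Counts of called miRNAs depended on the processing. Against normal liver the count was 0 after each operation, and 2 after 1/3 PH and 3 after 2/3 PH by unadjusted p. Leaving out single arrays gave 0 after 1/3 PH and 0 to 1 after 2/3 PH. Between the operations it was 0, and 1 (miR-27a at 6 hours) with the 75th percentile over all probes or with outlier spots kept. Between 36 and 6 hours it was 2. It was 0 with no scaling, normexp, outlier spots kept or slide as a fixed block, and 1 with the deposited table, slide as a random block, scan day as a block, the filter of detection on at least 1 array or only the groups compared. It was 4 with the software's total signal or by unadjusted p, 5 with the percentile over all probes, and 1 to 3 with single arrays left out. The adjusted p over 12 alternatives ran from 0.00875 to 0.997 for miR-27a and from 0.0154 to 0.997 for miR-23b, and normexp brought their estimates to 0.23 and -0.20. Over 9 groups the count was 1 (miR-27a), and 1 with the software's total signal, there miR-23b. It was 0 with no scaling, normexp, the deposited table or outlier spots kept, and 2 with a floor of 1, scan day as a block, detection on every array, trend or unadjusted p. It was 3 with the percentile over all probes, and 1 to 2 without single arrays, the second being miR-23b without 1/3 PH 12 h replicate 3, 1/3 PH 24 h replicate 3 or 2/3 PH 36 h replicate 3.

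The late shift of the miR-27 ratio after 2/3 PH lost its call with normexp (0.30) and within scan day 1 (0.64, with 3 and 4 arrays). In the latter the exact permutation p of 0.0286 was the smallest that so few arrays allow (adjusted p = 0.114), so a call was not possible for this shift there. Its excess over 1/3 PH lost it with quantile normalization (0.43), normexp (0.20), the deposited table (0.35) and values centred on slide (0.21), and lay between 0.27 and 0.47 without single arrays. The difference of the operations in the miR-27 ratio was called with values centred on slide (-0.23), although at 24 and 36 hours the operations shared no slide. The same limit holds for the excess of 0.21 with values centred on slide. The miR-23 ratio of remnants against normal liver was called with outlier spots kept (-0.23) and without 1/3 PH 6 h replicate 2, in a range of -0.26 to -0.15 without single arrays, and was smaller with values centred on slide (-0.12), the deposited table (-0.11), quantile normalization (-0.16) and normexp (-0.06). The median r of the 10 pairs, 0.21, was 0.95 with the percentile over all probes, 0.88 with no scaling, 0.65 with normexp and 0.56 with the total signal. The percentile over all probes moved the median of all miRNAs between 36 and 6 hours after 1/3 PH from 0.05 to -1.70, and with it miR-27a to -1.39, miR-23b to -1.74, miR-27b to -1.69 and miR-24 to -1.71, all then called lower. Normexp moved that median at 36 hours after 2/3 PH against normal liver from 0.06 to 0.63. The causes of these differences were not tested. Over 80 differences of single miRNAs, 2969 of 3005 alternative values stayed on their side of the threshold, and 171 changed sign, called only in the 4 named above. Most of these differences were not called to begin with, and leaving out an array of neither compared group keeps the estimate itself. These counts therefore say little about the 2 calls between 36 and 6 hours.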
